A study of Mus musculus with 16 samples.

Results

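Metformin given on top of high-fat feed was compared with high-fat feed alone in the livers of C57BL/6J mice, 4 mice with metformin and 4 without, which are 8 of the 16 libraries of the study. The libraries were chosen by their diet labels. The metformin mice received 200 mg/kg per day by gavage, and no drug or gavage is named for the high-fat mice. Both further groups of 4 are resveratrol on high-fat feed (100 mg/kg per day by gavage) and ordinary feed. Their values are given as description. Their libraries also count in the choice of tested features and in the fit of all 16 libraries. They therefore share in the spread behind each p-value of that fit for metformin against high fat. All mice are labelled as age postnatal day 21, and the labels do not say whether feeding began or tissue was taken at that age, how long the drug was given, or the sex. Each library is 1 liver sample, named here by group and by a number from 1 to 4 that only follows the order of deposition. The sample titles of all 4 high-fat libraries share 1 prefix and those of the metformin libraries carry 3, with a meaning not given in the sources used here. Whatever the prefix marks cannot be told apart from the absence of metformin.

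Metformin is a biguanide that lowers blood glucose mainly by reducing glucose output from the liver. It weakly inhibits complex I of the mitochondrial respiratory chain, raises AMP and activates the AMP-activated kinase AMPK, which phosphorylates acetyl-CoA carboxylase and dampens lipid synthesis. Transcription of the gluconeogenic gene Pck1 is driven by glucagon through cAMP and the factor CREB, and is reduced by insulin. The files hold long non-coding transcripts, not the coding genes themselves. Many of these transcripts lie inside introns, over untranslated exons or close to coding genes, so each is placed below by the gene it overlaps or neighbours. The sources used here name no strand setting for the counting, and reads of a transcript and of the gene it overlaps cannot be told apart. A gene symbol therefore names a place and not the level of the coding gene.

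Levels are given in FPKM, in which the reads of a transcript are divided by its length and by the library's total. A feature is 1 listed transcript, or an Ensembl gene with its transcripts summed, and 7413 features with at least 1 FPKM in at least 4 of 16 libraries were tested. The metformin libraries held 17.6 to 23.5 M reads (M, mega) and the high-fat libraries 21.9 to 31.1 M, of which 17.1% to 19.7% with metformin and 17.5% to 23.6% on high fat alone lay on the listed transcripts. High-fat library 4 stood apart. Against a library of geometric means its features had a median ratio of 0.691, where the range was 0.885 to 1.09 in the metformin libraries and 0.943 to 1.05 in the other high-fat libraries. It had 3979 tested features at 1 FPKM or more, against 5008 to 6029 with metformin and 5397 to 5749 in the other high-fat libraries, and 22.6% of its listed reads lay at the ribosomal RNA locus, against 11.9% to 16.1% with metformin and 10.0% to 12.9% in the other high-fat libraries. Values are therefore given as deposited and, where it matters, after division by that ratio (median-ratio scaling). In exact two-sided permutation tests 7 such library measures gave p of 0.2 to 0.914 between the groups (adjusted p 0.667 to 0.914), where the smallest p possible is 0.0286. Cell type could be checked only thinly. Of 12 hepatocyte markers 5 had a listed feature at their gene, whose FPKM summed to 1.45 to 2.86 with metformin and 1.31 to 2.19 without. Sums at macrophage markers (3 of 8 with a feature) were 0.648 to 1.05 with metformin and 0.679 to 1.13 without, and at stellate markers (4 of 8) 2.73 to 4.41 with and 1.83 to 4.37 without. At endothelial markers (2 of 8) they were 0.267 to 0.419 with metformin and 0.323 to 0.445 without, at cholangiocyte markers (2 of 5) 0.256 to 0.398 with and 0.369 to 0.460 without, and at lymphocyte markers (2 of 6, with Cd3e under 0.1 throughout) 0.561 to 1.63 with and 0.615 to 1.28 without. No marker of blood or adipocytes had a listed feature. The part of cell composition in the results was not tested, and fewer cells of a type and less RNA per cell cannot be told apart in whole liver.

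**Figure D1:**
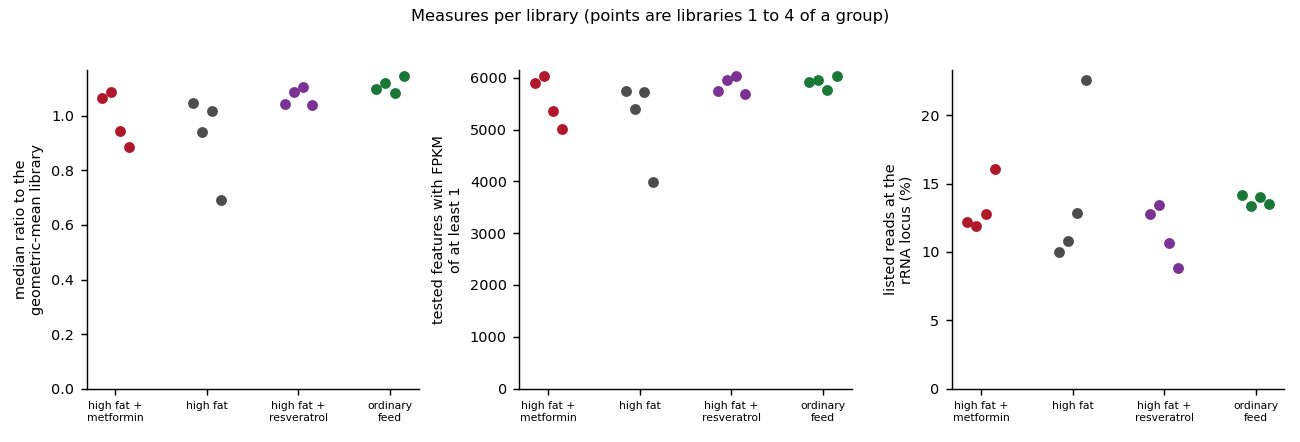
Per-library measures in the 4 groups, with the median ratio of features to their geometric means, the number of tested features at 1 FPKM or more, and the percent of listed reads at the ribosomal RNA locus on the vertical axes. Points are libraries. High-fat library 4 lies at a ratio of 0.691, at 3979 features and at 22.6%, away from the other high-fat libraries.

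Few features separated the metformin livers from the high-fat livers. At an adjusted p under 0.05 (limma on log2(FPKM + 1) with Benjamini-Hochberg adjustment over all features), 2 of 7413 features were called, or 0.027%. A transcript in the 3′ untranslated region of Mis12 was higher with metformin, and a transcript in an intron of Tacc1 was lower. After median-ratio scaling 8 features, 0.108%, were called, of which Mis12 was the 1 that was higher and 7 were lower. Over all features the log2 change had a median of 0.07 with the deposited values and of -0.00 after scaling, and the median 95% interval reached 0.36 to either side of the estimate. At an unadjusted p under 0.05 there were 554 features, 7.47% of those tested, with 362 higher with metformin (4.88%) and 192 lower (2.59%). Scaling turned this split to 304 higher and 381 lower, and leaving out high-fat library 4 to 234 and 326, so the excess of higher features was not seen under either setting. All 4 metformin values lay above all 4 high-fat values in 190 features (2.56%) and below them in 66 (0.89%). These shares were counted with the deposited values and high-fat library 4 included, not after scaling or without it.

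**Figure D2:**
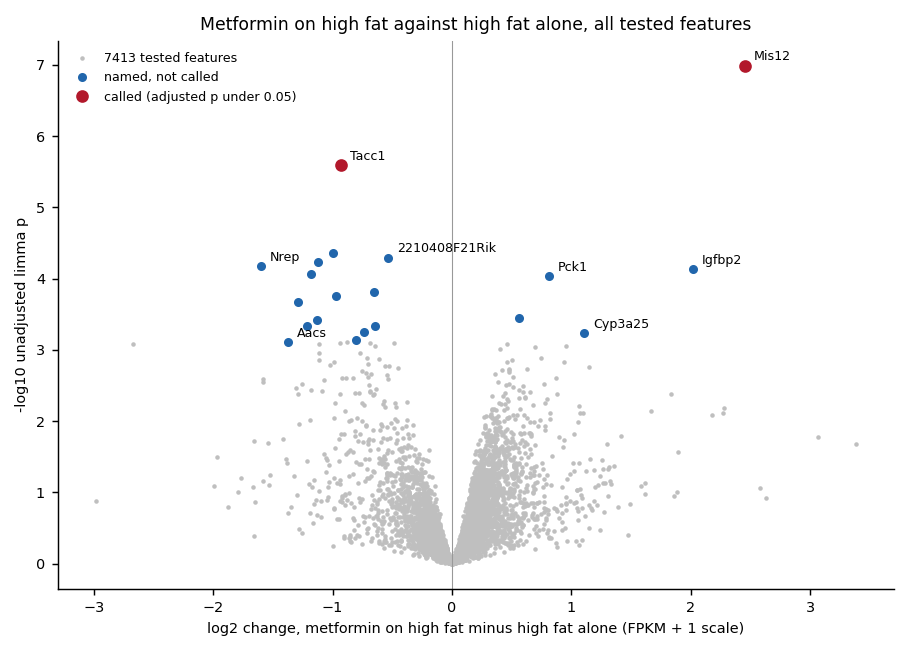
Log2 change between metformin on high fat and high fat alone (horizontal, on the FPKM + 1 scale) against the unadjusted limma p as −log10 (vertical) for 7413 features. The features at Mis12 (2.45) and Tacc1 (-0.93) passed the adjusted threshold, and 18 further named features did not.

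The feature that separated the groups most clearly, NONMMUT010559.2, is a single interval of 1878 bases at chr11:71025492-71027369 (GRCm38) in the 3′ untranslated exon of Mis12, a subunit of the kinetochore complex that joins chromosomes to the spindle. It had 8.40, 5.23, 2.45 and 7.02 FPKM in metformin libraries 1 to 4, against 0.211, 0.137, 0.163 and 0.121 FPKM in high-fat libraries 1 to 4. Every metformin library lay far above every high-fat library, and the lowest was metformin library 3. The means were 5.77 ± 2.57 with metformin and 0.158 ± 0.0394 FPKM without (SD, n = 4 each), from 106 to 371 reads with metformin and 5 to 9 without. The log2 change was 2.45 (SE 0.26, 95% interval 1.91 to 3.00, limma adjusted p = 0.000762), and after scaling it was 2.45 (adjusted p = 0.000624). Scaled means were 5.80 ± 2.59 with metformin and 0.171 ± 0.0242 FPKM without. Resveratrol livers averaged 6.63 ± 1.68 FPKM and livers on ordinary feed 5.80 ± 1.45, so the low values stood in the high-fat group and not in any other. When high fat alone was set against ordinary feed, with the same high-fat libraries, the log2 change was -2.53 (adjusted p = 0.000171). Mis12 was the only gene of the cell cycle list with a tested feature.

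The other called feature, NONMMUT130078.1, covers 864 bases at chr8:25224918-25225781 in an intron of Tacc1, which encodes a coiled-coil protein of centrosomes and microtubules. Its values were 1.13, 1.12, 0.703 and 1.04 FPKM with metformin and 2.50, 2.64, 3.34 and 2.69 FPKM on high fat alone. The groups did not overlap, and metformin library 3 was again the lowest. Means were 0.998 ± 0.201 with metformin and 2.79 ± 0.374 FPKM without (SD, n = 4 each), from 14 to 23 reads with metformin and 49 to 71 reads without. It fell by 0.93 on the log2 scale (SE 0.13, limma adjusted p = 0.00959), and by 1.02 after scaling (adjusted p = 0.00767). The call was lost without metformin library 3 (adjusted p = 0.0550), without high-fat library 3 (0.0587) and with the 8 libraries fitted alone (0.0522) by the same test, over a range of 0.00472 to 0.0587 in all alternatives. Resveratrol livers averaged 1.15 and ordinary-feed livers 1.34 FPKM, both near the metformin level.

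The Tacc1 transcript is 1 of 16 tested features along the gene. All 16 had a lower fitted level with metformin, with log2 changes between -0.93 and -0.30 and a median of -0.68, against 0.07 over all features, and 13 of them had an unadjusted p under 0.05. In 5 of the 16 the groups did not overlap. Over all features, 2.59% were lower and 4.88% higher at an unadjusted p under 0.05. Without overlap between the groups, 0.89% were lower and 2.56% higher. Summed over the 16 features, the metformin libraries had 21.7, 36.3, 14.7 and 25.9 FPKM and the high-fat libraries 36.2, 43.9, 49.5 and 58.2 FPKM. Metformin library 2 reached the level of high-fat library 1, and the other metformin libraries lay below every high-fat library. The sums averaged 24.6 ± 9.05 with metformin and 47.0 ± 9.28 FPKM without (SD, n = 4 each), with 27.5 ± 3.51 in resveratrol livers and 25.4 ± 6.29 on ordinary feed. The median change was -0.79 after scaling and -0.57 without high-fat library 4. Neighbouring features of 1 gene are not independent, and this stretch and those below were picked because a named feature lies in them, apart from Foxa2, which was picked from earlier results of these data. They carry no test of their own.

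**Figure D3:**
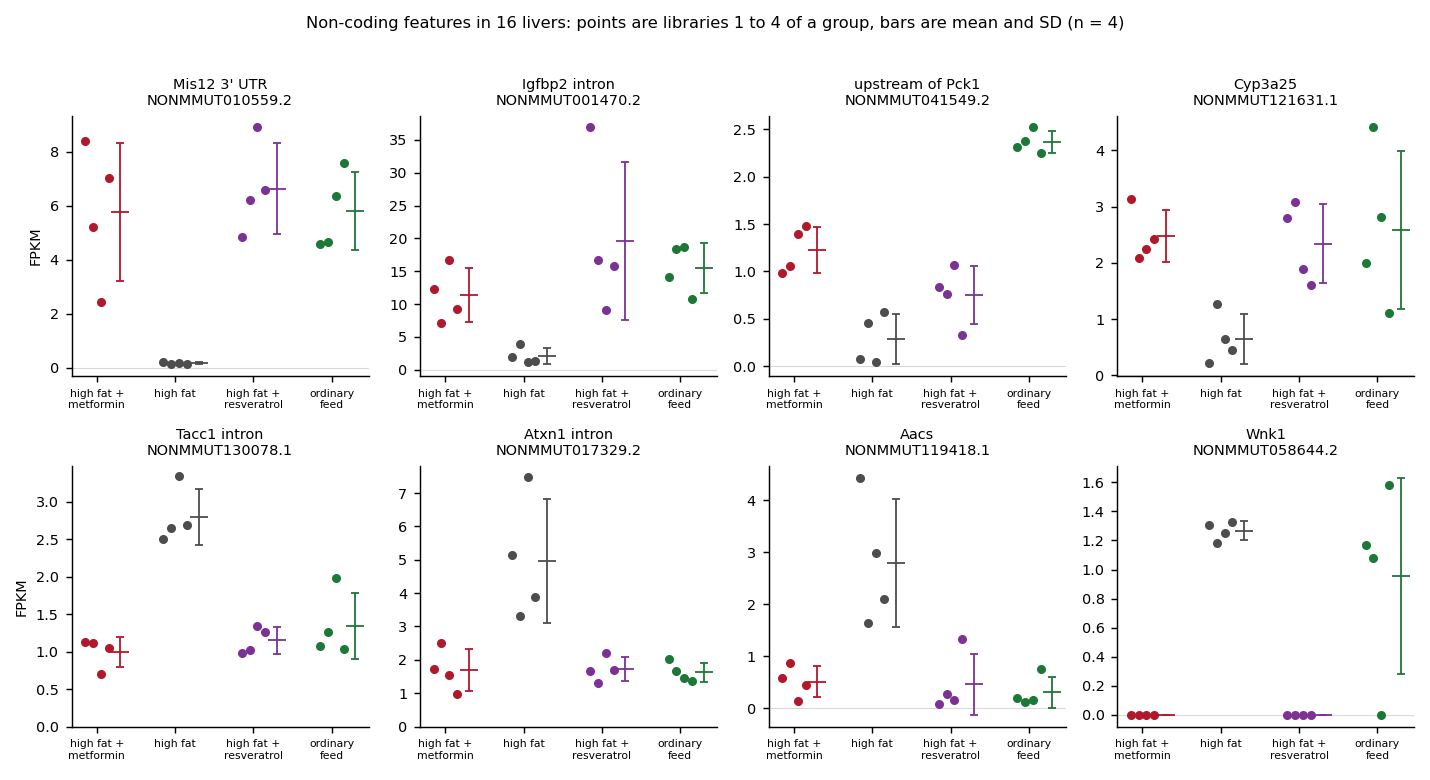
FPKM (vertical, linear) of 8 named features in each of the 16 livers, with metformin on high fat left of high fat alone, then resveratrol on high fat and ordinary feed. Points are libraries and bars the mean and SD of 4. The features at Mis12, Igfbp2, Pck1 and Cyp3a25 had all 4 metformin values above the high-fat values, and those at Tacc1, Atxn1, Aacs and Wnk1 had them below.

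NONMMUT001470.2 covers 1522 bases at chr1:72832881-72834402 in an intron of Igfbp2, a binding protein for insulin-like growth factors that hepatocytes secrete. It had 12.3, 7.16, 16.6 and 9.28 FPKM with metformin and 2.00, 3.93, 1.15 and 1.29 FPKM on high fat alone. Every metformin value lay above every high-fat value. The means of 11.3 ± 4.11 with metformin and 2.09 ± 1.28 FPKM without gave a log2 change of 2.02 (SE 0.37, limma adjusted p = 0.0767), which missed the threshold, also after scaling (1.95, adjusted p = 0.0581). It was called only when high-fat library 2, the highest of its group, was left out. Livers with resveratrol averaged 19.6 ± 12 FPKM and those on ordinary feed 15.5 ± 3.79.

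Pck1 encodes cytosolic phosphoenolpyruvate carboxykinase, which commits oxaloacetate to glucose synthesis. Its 6 tested features lie upstream of the gene, and all 6 had a positive log2 change with metformin, with a median of 0.42 (0.38 after scaling) and 3 at an unadjusted p under 0.05. The 6 are overlapping entries within chr2:173140323-173148687, so their signs are not independent. The clearest was NONMMUT041549.2 at chr2:173142376-173148383, 4.67 kb from the gene, with 0.981, 1.06, 1.39 and 1.48 FPKM with metformin and 0.0802, 0.456, 0.0398 and 0.571 FPKM without. No value overlapped, although high-fat libraries 1 and 3 were far below 2 and 4. Its log2 change was 0.81 (SE 0.15, limma adjusted p = 0.0767), and 0.76 after scaling (adjusted p = 0.103). It was called only when high-fat library 4 was left out. Summed over the 6 features the metformin libraries had 4.64, 3.93, 6.41 and 6.16 FPKM and the high-fat libraries 1.72, 2.49, 1.36 and 2.23 FPKM, so the groups did not overlap. The mean sums were 5.29 ± 1.20 with metformin and 1.95 ± 0.507 FPKM without, while livers on ordinary feed had 12.7 ± 1.60 and those with resveratrol 7.10 ± 1.94. The metformin sums thus lay between the high-fat and the ordinary-feed sums, with no overlap on either side. For NONMMUT041549.2 the change against ordinary feed was -0.60 with metformin (adjusted p = 0.0665) and -1.41 on high fat alone (adjusted p = 0.000238), 2 comparisons that share the ordinary-feed libraries.

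The window just before the start of Gm36691, a gene model that RefSeq lists inside this stretch, lies wholly within NONMMUT041549.2 and is printed because cAMP-driven transcription near Pck1 is known to use CREB elements. It spans chr2:173148133-173148382 on the minus strand (GRCm38.p6, RefSeq), read 5′ to 3′, and the capitals mark the 1 match to TGACG, the half-site of the cAMP response element.
Gm36691: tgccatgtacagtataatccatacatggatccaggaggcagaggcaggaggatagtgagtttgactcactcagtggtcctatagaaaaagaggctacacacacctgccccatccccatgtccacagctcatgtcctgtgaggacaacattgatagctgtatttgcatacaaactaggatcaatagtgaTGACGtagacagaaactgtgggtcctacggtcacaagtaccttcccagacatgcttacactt
The full element TGACGTCA had no match on either strand of the window. Of 32851 windows of the same length before mouse gene starts, 17.8% held TGACG or its reverse CGTCA and 1.55% held TGACGTCA, which contains the half-site. The match is a description of letters and not a site.

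Aacs encodes acetoacetyl-CoA synthetase, which turns the ketone body acetoacetate back into a precursor of lipids. Its 4 tested features had no overlap between groups, each with all metformin values below all high-fat values, and a median log2 change of -1.25 (-1.35 after scaling). Over all features 0.89% were lower without overlap. Lack of overlap was also a condition for the named features through which this stretch was picked. The sums were 1.98, 4.04, 0.922 and 1.89 FPKM with metformin and 15, 7.03, 12.6 and 7.97 FPKM without. Metformin library 2 was the highest of its group and still below high-fat library 2, the lowest of the other. NONMMUT119418.1, which spans part of the gene at chr5:125496681-125508255, had 0.513 ± 0.298 FPKM with metformin and 2.78 ± 1.23 without (log2 change -1.29, SE 0.27, limma adjusted p = 0.134), and was called after scaling (adjusted p = 0.0485). NONMMUT119417.1 (-1.37) and NONMMUT149179.1 (-1.21, 4.06 kb downstream) had adjusted p of 0.227 and 0.213. Counts here were small, at 2 to 9 reads with metformin and 27 to 59 without for NONMMUT119418.1. Ordinary-feed livers summed to 0.736 ± 0.50 FPKM and resveratrol livers to 2.47 ± 3.24, where 1 library had 7.32.

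Onecut1 encodes hepatocyte nuclear factor 6, a regulator of liver development and of glucose and bile acid genes. Its 3 tested features all had negative log2 changes, with a median of -1.02. NONMMUT153838.1 at chr9:74853340-74861004, which ends 0.917 kb upstream of the gene, had 0.205, 1.14, 0.588 and 0.176 FPKM with metformin and 3.38, 1.33, 2.75 and 1.91 FPKM without. The groups did not overlap, but metformin library 2 came close to high-fat library 2. Its log2 change was -1.13 (SE 0.25, limma adjusted p = 0.204). The adjoining NONMMUT153839.1 had 0.390, 1.65, 0.597 and 0.206 with metformin and 3.17, 1.52, 2.94 and 1.88 FPKM without (-1.02, adjusted p = 0.278 by limma), with metformin library 2 above high-fat library 2, an overlap that was absent after scaling. Gm20649, a long transcript over the gene, was at 0 in 3 metformin libraries and 2 high-fat libraries and reached 12.5 FPKM in high-fat library 4. Without that library its change turned positive and the 2 others stayed negative.
The end of NONMMUT153839.1 reaches into the window before the RefSeq start of Onecut1, which is shown to place the feature. The window spans chr9:74861671-74861920 on the plus strand (GRCm38.p6, RefSeq), and its first 64 bases, in capitals, are those inside the feature. This window too holds 1 match to the half-site, as the reverse CGTCA outside the feature and not marked, and none to TGACGTCA.
Onecut1: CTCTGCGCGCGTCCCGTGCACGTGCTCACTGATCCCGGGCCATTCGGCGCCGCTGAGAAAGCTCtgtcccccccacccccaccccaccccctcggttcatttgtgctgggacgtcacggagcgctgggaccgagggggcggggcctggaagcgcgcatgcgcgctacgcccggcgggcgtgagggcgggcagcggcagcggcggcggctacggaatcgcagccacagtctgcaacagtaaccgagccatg

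Foxa2, a pioneer factor of hepatocytes that opens chromatin at fasting genes, had 11 tested features beside it. Of these, 10 had negative log2 changes with metformin (median -0.75, -0.86 after scaling) and 7 an unadjusted p under 0.05. Over all features 2.59% were lower at such a p. None of the 11 was called with the deposited values. In 1 of them the groups did not overlap, beside 0.89% of all features that were lower without overlap. The sums were 69.5, 170.0, 58.0 and 73.0 FPKM with metformin and 191, 148, 173 and 124 FPKM without. Metformin library 2, at the level of the high-fat libraries, stood apart from the other 3 metformin libraries. The mean sums were 92.6 ± 52.0 with metformin and 159 ± 29.5 FPKM without (SD, n = 4 each).

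Atxn1, which encodes a transcriptional co-repressor, had 10 tested features, of which 9 had negative changes and 4 an unadjusted p under 0.05. Over all features 2.59% were lower at such a p. None of the 10 was called with the deposited values. Their median change was -0.45, and -0.28 without high-fat library 4. In 1 of the 10, the named feature, the groups did not overlap. NONMMUT017329.2 at chr13:45939169-45941038 in an intron had 1.73, 2.52, 1.53 and 0.986 FPKM with metformin and 5.14, 3.30, 7.49 and 3.88 FPKM without, with no overlap. Its log2 change was -1.13 (SE 0.20, limma adjusted p = 0.0767), and it was called after scaling (-1.23, adjusted p = 0.00923). Arid5b, a DNA-binding partner of a histone demethylase that takes part in fat storage, had 6 tested features, all with negative changes (median -0.58). The sums were 20.5, 24.8, 11.7 and 18.1 FPKM with metformin and 44.9, 32.8, 40.8 and 23.7 FPKM without, and overlapped through metformin library 2 and high-fat library 4. Its named feature, NONMMUT006046.2, had a log2 change of -0.65 (limma adjusted p = 0.213) and no overlap. In the other direction, 4 of 5 features at Cyp3a25, a cytochrome P450 of steroid and drug oxidation, had positive changes. NONMMUT121631.1 there had 3.13, 2.09, 2.24 and 2.43 FPKM with metformin and 0.217, 1.26, 0.645 and 0.448 FPKM without (log2 change 1.11, limma adjusted p = 0.227), again without overlap.

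**Figure D4:**
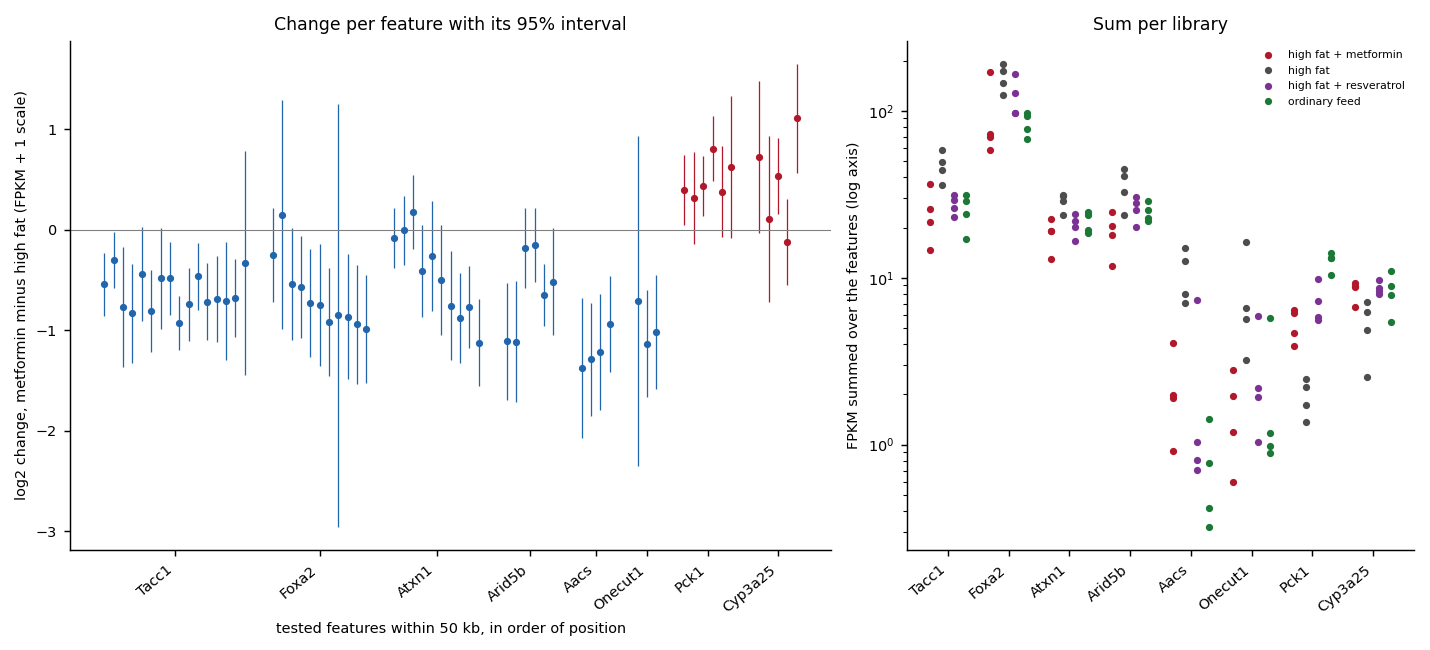
Left, log2 change between metformin on high fat and high fat alone with its 95% interval (vertical) for each tested feature within 50 kb of 8 genes, in order of position. Right, FPKM summed over these features in each library (log axis), with metformin left of high fat. All 16 features at Tacc1 lie below 0 and all 6 at Pck1 above it. The sums at Aacs, Pck1, Atxn1 and Onecut1 do not overlap between the metformin and the high-fat group.

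The remaining named features were not called as deposited. NONMMUT152911.1, 43.8 kb upstream of Nudt7 (a peroxisomal coenzyme A hydrolase), had 0.287, 0.671, 0.220 and 0.456 FPKM with metformin and 1.64, 2.06, 2.73 and 1.00 FPKM without. The log2 change was -1.0 (SE 0.17, limma adjusted p = 0.0767, 0.00854 after scaling). NONMMUT031874.2, over the 5′ untranslated exon of Nrep, had 0.154, 1.10, 0.297 and 0.181 FPKM with metformin and 5.65, 1.80, 4.99 and 1.84 FPKM without (-1.60, limma adjusted p = 0.0767, 0.0133 after scaling). Metformin library 2 was the highest of its group in both, and neither overlapped the high-fat group. NONMMUT121978.1, which overlaps the non-coding gene 2210408F21Rik, had 1.29 ± 0.207 FPKM with metformin and 2.32 ± 0.111 without (-0.54, SE 0.10, limma adjusted p = 0.0767, 0.0268 after scaling). It is 1 of 6 overlapping features, whose sum gave a log2 change of -0.20 (limma adjusted p = 0.735). The assembled transcript MSTRG.9831.1 at the non-coding gene Gm9661 (-0.97, 0.118) and NONMMUT009671.2 over exons of Sec24a, a coat protein of vesicles leaving the endoplasmic reticulum (-0.65, 0.115), were lower in fitted level, with limma adjusted p given second in each pair. NONMMUT093160.1 at the zinc finger gene Zfp395 had 3.06 ± 0.535 FPKM with metformin and 1.74 ± 0.254 without (0.56, limma adjusted p = 0.204). It is 1 of 2 tested features there, and the other had a log2 change of -1.58. Their sum averaged 5.91 ± 5.34 FPKM with metformin and 7.24 ± 2.87 without. The last 2, NONMMUT130079.1 (-0.74) and NONMMUT130075.1 (-0.81), belong to the Tacc1 stretch, both with a limma adjusted p of 0.227.

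A few features were near 0 in every library of 1 group (all under 0.25 FPKM) and at 1 FPKM or more in every library of the other. Besides Mis12, NONMMUT001352.2 at Cps1, the first enzyme of the urea cycle, had 1.69, 2.16, 1.31 and 1.21 FPKM with metformin and 0.140, 0.153, 0.208 and 0.145 FPKM without, from 17 to 25 reads with metformin and 2 to 3 reads without. Its log2 change was 1.14 (limma adjusted p = 0.278). NONMMUT061284.2 at E2f8 and the non-coding Gm2788 had 5.77, 1.37, 4.98 and 4.74 FPKM with metformin and was listed at 0 in all 4 high-fat libraries (limma adjusted p = 0.411). It was also at 0 in 2 resveratrol and 3 ordinary-feed libraries, and the sum of the 9 overlapping features there went the other way (-0.61). In the opposite state, NONMMUT058644.2, a multi-part transcript at Wnk1 (a kinase that controls ion transport) and the microRNA gene Mir706, was listed at 0 in all 4 metformin libraries and had 1.30, 1.18, 1.25 and 1.33 FPKM, from 64 to 82 reads, in the high-fat libraries. It was at 0 in all 4 resveratrol libraries too, and at 1.17, 1.08, 0 and 1.58 FPKM on ordinary feed. It had a limma adjusted p of 0.0767 (0.0329 after scaling). The other tested features at Wnk1 had log2 changes of 0.03, -0.04 and 0.04. At the nuclear RNA Malat1 1 transcript and the sum of those that overlap it gave unlike values. There NONMMUT033604.2 had 0.391, 0.359, 0 and 0 FPKM with metformin and 13.2, 0.993, 10.0 and 8.90 FPKM without (-2.67, limma adjusted p = 0.227), yet the 7 overlapping features summed gave a log2 change of -0.10.

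Of 52 genes and RNAs looked up by name, among them genes on which metformin is known to act and general nuclear RNAs, 25 had a tested feature. None of the 25 was called, beside a share of 0.027% called among all features. Those without one include G6pc, the last enzyme of glucose output. At Prkaa2, the catalytic α2 subunit of AMPK, an intronic feature had 1.01, 1.27, 0.973 and 0.653 FPKM with metformin and 2.94, 1.61, 3.47 and 1.20 FPKM without. High-fat library 4 lay inside the metformin range, and the log2 change was -0.69 (95% interval -1.11 to -0.27, limma adjusted p = 0.321). After scaling the values were 0.738 to 1.17 FPKM with metformin and at least 1.71 FPKM without, with no overlap (log2 change -0.77, limma adjusted p = 0.0642). At the kinase Stk11, which activates AMPK, the change was -0.10 (95% interval -0.39 to 0.19), and at the regulatory subunit Prkag2 it was 0.07 (-0.17 to 0.30). Of the 13 features on the AMPK and mTOR list, 7 had positive and 6 negative changes, with a median of 0.03. Sirt1, a deacetylase that acts with AMPK, had a 3′ untranslated feature at 4.12, 0.0695, 3.77 and 2.95 FPKM with metformin and 3.60, 0.0788, 0.0804 and 0.0558 FPKM without. Both groups held high and near-0 livers, and the change was 1.05 (limma adjusted p = 0.694).

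Among 5 features of gluconeogenesis the median log2 change was 0.32 (0.26 after scaling), against 0.07 over all features, and 4 were positive. The groups did not overlap at Pck1 (NONMMUT041547.2, 0.44, limma adjusted p = 0.420) or at Mdh1, the cytosolic malate dehydrogenase (1.76 ± 0.284 with metformin and 1.18 ± 0.180 FPKM without, 0.34). These were 2 of the 5 features, beside 2.56% of all features that were higher without overlap, and none of the 5 was called. After scaling the groups overlapped at Pck1. At Fbp1, fructose bisphosphatase, the means were 15.3 ± 7.04 with metformin and 15.2 ± 2.30 FPKM without. The 13 features of lipogenesis had a median of -0.07, with 5 positive and 8 negative. The highest change was 0.29. Without overlap, 1 feature of the list was higher with metformin and 1 lower, beside 2.56% and 0.89% of all features. The largest changes of the list in size were at Aacs, Scd1 and Fasn. Scd1, the stearoyl-CoA desaturase, had 758, 516, 2663 and 230.5 FPKM over its 3′ untranslated exon with metformin and 1832, 2322, 2256 and 702 FPKM without (-1.20, limma adjusted p = 0.674). Metformin library 3 was the highest of all 8. Fasn, fatty acid synthase, had 1.02, 1.98, 4.72 and 1.04 FPKM with metformin and 8.78, 4.76, 7.44 and 1.16 FPKM without (-0.97, limma adjusted p = 0.674), and the groups overlapped. At Acaca, the acetyl-CoA carboxylase that AMPK phosphorylates, the change was -0.07 (95% interval -0.43 to 0.30).

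In cholesterol synthesis and uptake 6 of 8 features were positive. Their median was 0.20, 0.13 after scaling and 0.04 without high-fat library 4, where the median of all features was 0.07, -0.00 and -0.00. Msmo1, a sterol oxidase, had 2.66, 3.10, 0.686 and 0.840 FPKM with metformin and 1.08, 0.786, 0.315 and 0.0983 FPKM without (0.78, adjusted p = 0.50 by limma). The groups overlapped. All 4 bile acid features were positive, with a median of 0.38, which was 0.17 without that library. The one at Cyp7a1, the rate-limiting enzyme of bile acid synthesis, had 2.74, 4.37, 1.88 and 0.617 FPKM with metformin and 0.745, 0.339, 1.29 and 0.289 FPKM without. Metformin library 4 lay inside the high-fat range, and the change was 0.94 (SE 0.35, limma adjusted p = 0.525). The 8 features of fatty acid oxidation had a median of 0.06, with Cpt1a, the gate of fatty acids into mitochondria, at 0.06 and Ppara, its regulator, at -0.15. The 9 features of the respiratory chain had a median of 0.14 and stayed between -0.25 and 0.26.

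Genes of the growth hormone and IGF axis had a wide range. Its 8 features had a median of -0.12 but ranged from -1.66 at Igf1 to 2.02 at Igfbp2. Igf1, the growth factor that the liver secretes under growth hormone, had 1.46, 10.1, 2.61 and 1.01 FPKM with metformin and 19.7, 7.77, 14.1 and 6.16 FPKM without (limma adjusted p = 0.525). Metformin library 2 was within the high-fat range, and the other 3 lay below it. Bcl6, a repressor in hepatocytes, had 2.35, 9.37, 4.04 and 2.82 FPKM with metformin and 23.1, 7.36, 11.4 and 8.51 FPKM without (-1.29, limma adjusted p = 0.335), and Egfr had 37.5 ± 33.5 with metformin and 79.2 ± 32.2 FPKM without (-1.39, adjusted p = 0.610 by limma). Metformin library 2 was the highest of its group in Igf1, Bcl6 and Egfr. At Stat5b, which carries the growth hormone signal to the nucleus, the groups did not overlap (3.34 ± 0.189 with metformin and 2.32 ± 0.485 FPKM without, 0.40). After scaling they overlapped. Of the 8 features of the growth hormone and IGF list 2 were higher without overlap as deposited, beside 2.56% of all features. Among 5 features of amino acid and one-carbon metabolism 4 were positive (median 0.46). At Cth, cystathionine gamma-lyase, the intronic gene Gm43314 had 4.25, 4.37, 5.60 and 2.52 FPKM with metformin and 1.64, 1.44, 1.59 and 1.04 FPKM without (1.07, SE 0.33, limma adjusted p = 0.397), and at Gldc, the glycine decarboxylase, the values were 1.63, 1.06, 1.02 and 0.838 with metformin and 0.649, 0.568, 0.344 and 0.626 FPKM without (0.46, adjusted p = 0.269 by limma). Neither overlapped.

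The 10 features of liver transcription factors had a median of 0.06, with Foxa2 (-0.98) and Onecut1 (-1.02) at the low end and Prox1 at the high end (0.47, limma adjusted p = 0.563). The medians were 0.14 over 7 features of the integrated stress response, where Ddit3 had 0.38 and Creb3l2 -0.37, 0.16 over 8 of the circadian clock, where Arntl had 0.19, and 0.14 over 8 of antioxidant defence, where Cat had 0.40. The widest difference of the antioxidant list lay at a 3′ untranslated feature of Gsr, glutathione reductase, with 31.9, 35.5, 0.142 and 34.9 FPKM with metformin and 0.145, 0.105, 0.287 and 19.8 FPKM without. Both groups held high and near-0 livers, and its log2 change was 2.63 (limma adjusted p = 0.724). The medians were also -0.05 over 11 features of insulin signalling, where Pik3r1 had -0.56, 0.21 over 5 of the major urinary proteins and sex-biased genes and 0.12 over 3 of inflammation. Without high-fat library 4 the median was 0.01 for the major urinary proteins and sex-biased genes, 0.03 for the clock, 0.09 for the stress response, 0.08 for antioxidant defence, 0.05 for inflammation, 0.04 for the respiratory chain, -0.09 for fatty acid oxidation, -0.15 for lipogenesis, -0.07 for the AMPK and mTOR list, -0.04 for liver transcription factors, -0.15 for insulin signalling and -0.24 for the growth hormone and IGF list. The 16 nuclear RNAs and hosts of small nucleolar RNAs, which are non-coding genes in their own right, had a median of 0.00. Gas5 had 25.2 ± 2.56 FPKM with metformin and 24.0 ± 4.03 without, Snhg1 had 5.07 ± 0.950 with metformin and 5.75 ± 1.04 without, and Dleu2 had 10.0 ± 1.82 with metformin and 10.2 ± 1.26 without. Each of these differences was smaller than the spread within the groups. Neat1 had 77.8, 22.9, 14.3 and 6.53 FPKM with metformin and 25.8, 18.9, 16.8 and 11.6 FPKM without, and Malat1 4.58, 5.07, 7.34 and 5.39 with metformin and 10.0, 72.1, 11.7 and 3.05 without, so in each a single library lay far above the others. At Txnip, a brake on glucose uptake, an untranslated feature had a log2 change of -0.25 (95% interval -0.74 to 0.24). The non-coding gene Gm15441, which spans the same place, had 2.70 ± 1.18 FPKM with metformin and 3.38 ± 1.26 without, both below the 24.2 ± 13.3 FPKM of ordinary feed (log2 change -2.56 with metformin, limma adjusted p = 0.0444, and -2.30 on high fat alone, adjusted p = 0.00926). Here the metformin livers stood with the high-fat livers. At Rmrp, the RNA of ribonuclease MRP, the change was -0.08 (95% interval -0.28 to 0.13).

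**Figure D5:**
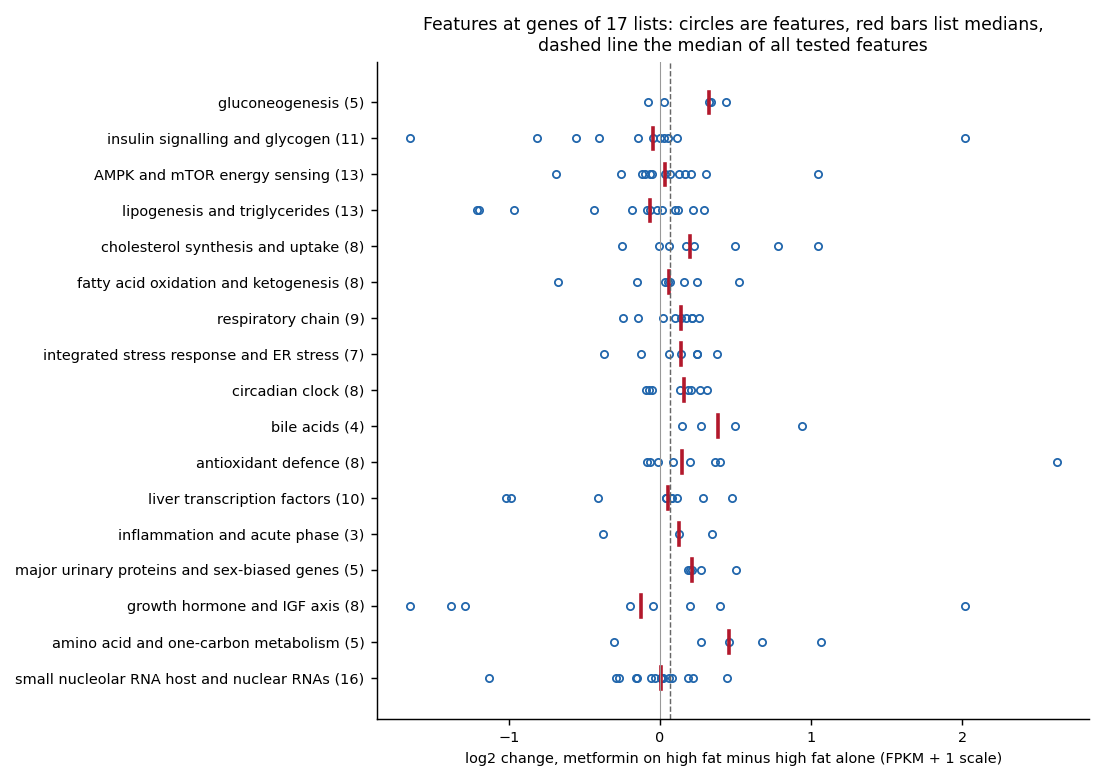
Log2 change between metformin on high fat and high fat alone (horizontal, FPKM + 1 scale) of the features at genes of 17 lists, each list with the number of its features. Circles are features, red bars list medians and the dashed line the median of all features at 0.07. Medians ran from -0.12 in the growth hormone and IGF list to 0.46 in the amino acid list, and no feature on these lists was called.

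Set beside the other groups, the metformin livers differed in 22 features from ordinary feed (0.297%), while high fat alone differed in 1085 (14.6%) and resveratrol livers differed from high fat in 6 (0.0809%), all by limma at an adjusted p under 0.05. These comparisons share libraries, and a larger count in 1 is not shown to differ from the other. After scaling the counts were 60, 813 and 13. Without high-fat library 4, a member of the shared fit, they were 260, 605 and 1. Over all libraries of the metformin and high-fat groups left out in turn, they ran from 2 (without metformin library 2) to 260, from 605 to 1181 (without high-fat library 1), and from 1 (also without high-fat library 3) to 16 (without high-fat library 1). The count between metformin and ordinary feed was also 4, 3, 11 and 9 without metformin library 1, metformin library 4, high-fat library 2 and high-fat library 3. Between the metformin and the resveratrol livers 0 features (0%) were called by limma and 0 by limma voom on the recovered reads. At an unadjusted p under 0.05 there were 471 and 422. By limma 1 was called without high-fat library 1, and 2 of 49988 were called without a filter. Of the 20 named features, the Mis12 and Igfbp2 features were called between resveratrol and high fat (log2 changes 2.70 and 2.65, limma adjusted p = 0.000224 and 0.0139). So was the Tacc1 feature (-0.82, adjusted p = 0.0264). The Igfbp2 feature was not called between metformin and high fat (limma adjusted p = 0.0767). Both comparisons use the same 4 high-fat libraries. Genomic place made little difference to the median change, which lay between 0.04 for features that span a gene and 0.08 for exonic ones, and between -0.03 and 0.01 after scaling.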

How the data were processed

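Total RNA of 16 mouse livers was extracted with Trizol and made into TruSeq libraries, per the labels' protocols. The authors deposited 1 table of FPKM values per library for long non-coding transcripts. The submitters' processing notes name GRCm38, Cufflinks 2.1.1 and Bowtie 0.12.2. They name no strand setting. The 51024 listed transcripts gave 49988 features after Ensembl transcripts were summed per gene. The 7413 features that reached 1 FPKM in 4 or more libraries were tested. FPKM times length gave whole reads within 0.05 of a read for at least 99.998% of values, so library totals and reads per feature were recovered from those steps. PCR copies cannot be told from separate molecules.

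The test was limma 3.58.1 (R 4.3.3), fitted to log2(FPKM + 1) with a trend of variance on mean, in 1 fit of 16 libraries with 12 residual degrees of freedom, and adjusted by Benjamini-Hochberg over 7413 features. Fold changes on this scale understate those of low features. The p-values measure only the spread between these libraries. The fit was checked on simulated data. Library measures were compared by exact permutation tests, and intervals are at 95%. Features were placed against coding genes of GENCODE M21 by position. A feature was linked to a gene it overlaps or lies within 5 kb of, and the highest on average stood for its gene. For whole stretches the distance was 50 kb. Called features with no overlap between groups and a mean of at least 1 FPKM were named, then those with the smallest p to make 20, then fixed genes. The list members named beyond these, and the transcripts on in 1 group and off in the other, were chosen after their values were seen. Of 30 gene lists, 17 had at least 3 tested features. The features, genes and lists were chosen with earlier results of these data known. Promoter windows are those of RefSeq. Alternatives covered scaling, pseudocount, filter, left-out libraries, the 8 libraries alone, limma voom, and other ways of summing.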

Additional observations from a re-analysis of the deposited data

Results flagged for a closer look

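In 138 groups of 4 values tested, 6 had a library far from the other 3, and chance gives about 1 in 20 such groups. Metformin library 2 had 1.10 FPKM at the Nrep feature NONMMUT031874.2, against 0.154 to 0.297 in the other metformin libraries. The same library had 0.949 FPKM at the Pck1 feature NONMMUT041547.2, against 1.32 to 1.38. Metformin library 4 had 21.4 FPKM of Gas5, against 26.2 to 26.8. High-fat library 1 had 3.60 FPKM at the Sirt1 feature, against 0.0558 to 0.0804 in the other high-fat libraries. High-fat library 2 had 72.1 FPKM of Malat1, against 3.05 to 11.7, and 31.1 M reads, against 21.9 to 22.9 M.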

How the results depend on the processing

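The count of called features, 2, was 8 after median-ratio scaling, 7 after quantile normalization, 4 without a filter, 10 with scaling and high-fat library 4 left out, and between 1 and 9 when 1 library was left out. It stayed within 1.5 times of 2 with a pseudocount of 0.1, a filter in 8 libraries, single transcripts, limma voom on recovered reads and overlapping features summed, and was 3 with the 8 libraries fitted alone. The Mis12 feature was called in all of these, and the Tacc1 feature in all but 3. The median change of all features lay between -0.00 and 0.12. Signs turned at Prkag2 (-0.0171 with scaling, -0.0958 with overlapping features summed, -0.00163 to 0.108 with 1 library left out), Stk11 (0.0157 with scaling and without high-fat library 4, -0.177 to 0.00197 with 1 library left out), Fbp1 (-0.324 to 0.179 with 1 library left out), Acaca (-0.249 to 0.0683 with 1 library left out), Cpt1a (-0.0320 with scaling, -0.183 with scaling and without high-fat library 4, -0.199 to 0.190 with 1 library left out), Neat1 (-0.249 with overlapping features summed, -0.406 to 0.724 with 1 library left out), Gas5 (-0.0372 with scaling, -0.0341 with scaling and without high-fat library 4, -0.0487 to 0.151 with 1 library left out), Snhg1 (0.0862 with voom), Dleu2 (0.0132 with scaling and without high-fat library 4, 0.0363 with voom, 0.152 with overlapping features summed, -0.114 to 0.0789 with 1 library left out), Rmrp (0.201 with quantile normalization, -0.124 to 0.000999 with 1 library left out) and NONMMUT061284.2 (-0.606 with overlapping features summed). None of these was called. The cause was not tested. Scaling, quantile normalization, pseudocount, filters, fit, left-out libraries and single transcripts were chosen earlier, and voom and summing were added after seeing the data. edgeR and DESeq2 were not run, since the files hold FPKM. No paired analysis was possible because the labels carry no replicate numbers that the groups share. With 4 libraries a group, 5 to 9 reads behind a value, as in the high-fat livers at Mis12, limit the precision of low features; the median 95% interval, 0.36 to either side, comes from the spread between livers.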
